A study of Mus musculus with 7 samples.

Results

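The Rab genes encode small GTPases that mark the compartments of the cell's membrane traffic. The members described here were taken by symbol alone: "Rab", 1 or 2 digits and at most 2 further characters. Of the 24062 gene symbols in the count tables, 61 fit that pattern. Removing Rab10os, Rab26os and Rab3ip, an opposite-strand transcript of each of a pair of Rab genes and an exchange factor, gave 58 Rab genes. Of these, 53 had at least 10 counts in at least 3 samples and were tested. The other 5 (Rab17, Rab19, Rab25, Rab38 and Rab44) were too low to test. No measured value entered this rule, but the family itself was selected on the contrast described here, whose values were already known and in which Rab7 was among the largest falls. The differences below are therefore a description of these 7 samples, given without p-values, and they support nothing beyond the values themselves.

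A Rab protein cycles between a GDP-bound form held in the cytosol and a GTP-bound form on a membrane, where it recruits the motors, tethers and fusion factors that move a vesicle to its target. Exchange factors (GEFs) switch a Rab on, GTPase-activating proteins (GAPs) switch it off, and effectors read the active form. In neurons the same machinery carries membrane proteins from the endoplasmic reticulum (ER) through the Golgi, releases synaptic vesicles and dense-core granules, sorts receptors in endosomes, and takes cargo to lysosomes or back to the surface.

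The neurons came from slices of the medial preoptic area (MPA) of Esr1-ZsGreen mice, a reporter strain whose fluorescence marks cells that express estrogen receptor alpha (ERα). Mice were 10 to 14 weeks old. Each neuron was recorded while the bath was warmed by 5 °C, so both groups had been warmed, and the contents of 2 neurons with the same response were pooled as 1 sample. The 4 temperature-responsive samples responded to warming and the 3 non-responsive samples did not. All 7 samples were ZsGreen positive. The reporter, not ERα protein, picked the cells, and aspiration with a patch pipette can take up RNA of neighbouring cells. Nothing in the labels shows that samples of a group came from separate animals, so any error given here is the spread between these samples, which may in part be technical.

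Total counts were 1914497 to 2814360 in temperature-responsive and 3309361 to 5125280 in non-responsive samples. The shallower group had the larger number of genes detected, 19852 to 21177 against 17818 to 19820, and neither range overlapped between groups. A count of 3, taken as the floor of detection, was worth 0.564 to 1.62 CPM (counts scaled to a common total of each library). Esr1 had 10 to 27 counts per sample. The study reports more GABAergic and less glutamatergic transcript expression in the temperature-responsive neurons. Here the GABAergic marker Gad1 was higher past the threshold (log2 fold change 0.48), and the glutamatergic marker Slc17a6 was not past it (-0.0076). Neuron type and response to warming thus cannot be told apart. The methods state that female mice were used, whereas the Y-linked gene Ddx3y had 684 to 1150 counts and Xist 2 to 14 in every sample. Markers of other brain cells were present throughout, with none of the 25 cell type markers at 0. The summed level of 5 oligodendrocyte markers was 2776 to 3773 CPM in temperature-responsive and 2355 to 2978 CPM in non-responsive samples, beside 2447 to 2810.1 and 2247 to 2588 CPM for 5 neuronal markers. Sums of 5 astrocyte markers (1083 to 1261 against 876 to 1068 CPM) and of 5 endothelial markers (75.2 to 276 against 17.4 to 52.7 CPM) were higher in every temperature-responsive sample. Of the astrocyte list Gja1 (log2 fold change 0.63) and Slc1a3 (0.44) were higher past the threshold and Gfap (-1.0) lower, and 3 of the 5 endothelial genes were higher and none lower. Sums of 5 microglia markers overlapped (271 to 306 and 304 to 324 CPM). Their part in the differences below was not tested, and fewer cells of a type cannot be told apart from less RNA per cell.

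Of the 53 tested Rab genes, 12 rose and 14 fell in temperature-responsive over non-responsive neurons by edgeR's quasi-likelihood test at an adjusted p under 0.05, the threshold used throughout. That is 49.1% of the family, Rab7 included. Without Rab7, whose fall was known when the family was chosen, 25 genes passed, 13 of them lower. The values of this contrast were already known for the other genes too, so leaving out Rab7 does not undo the selection. Both counts are descriptions. Over all 14407 genes tested the share was 30.0%, with 15.1% higher and 14.9% lower. In 29 Rab genes (54.7%) the 2 groups did not overlap, 14 with all temperature-responsive samples above and 15 with all below, against 35.4% of all genes, and each of the 26 genes past the threshold was among them. The median log2 fold change of the 53 genes was -0.067, beside 0.007 for all genes, and their median absolute log2 fold change was 0.35 beside 0.31. With upper quartile scaling the family's median was 2.8e-05 and that of all genes 0.074. Rab genes of every compartment but the mixed remainder changed in both directions: 5 up and 3 down of 11 tested on the ER and Golgi, 2 up and 2 down of 12 in exocytosis, 1 up and 2 down of 7 on early endosomes, 2 up and 2 down of 8 on late endosomes and lysosomes, and 1 up and 5 down of 8 on recycling endosomes. In the remainder (cilium, autophagy and uncertain roles) 1 of 7 was higher and none lower.

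**Figure D1:**
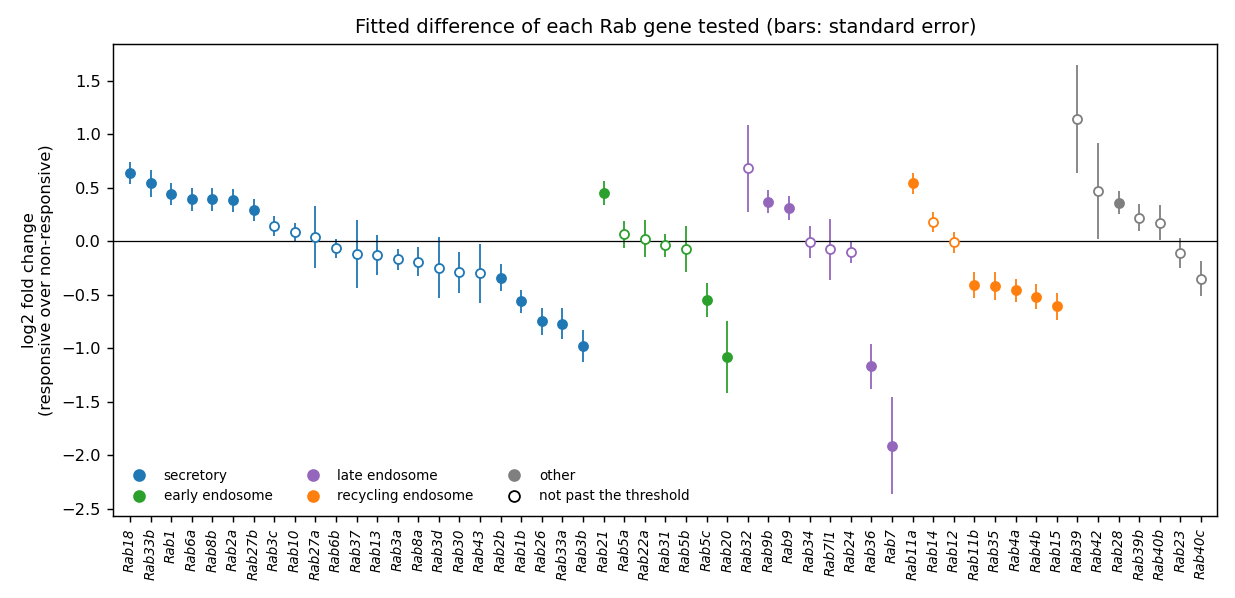
Fitted log2 fold change (y axis, temperature-responsive over non-responsive, bars are the standard error) of each of the 53 tested Rab genes, ordered within compartment and coloured by it. Filled points, 12 above and 14 below 0, passed the threshold, and the lowest point is Rab7 at -1.91.

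The Rabs of the ER and Golgi held the largest share of Rab transcripts. Per kilobase of transcript, the level of Rab6a averaged 232 CPM, followed by Rab3a (216), Rab2a (199), Rab11a (179) and Rab1 (145), and Rab6b came next at 86.6. All other levels and differences below are in CPM of the gene, not per kilobase, with samples in replicate order. Rab6a, which acts in transport within the Golgi and back to the ER, had 886, 896, 780.4 and 758 CPM in the temperature-responsive samples and 726, 594 and 580.4 CPM in the non-responsive samples. Every temperature-responsive sample lay above every non-responsive one, with non-responsive replicate 1 nearest to them. The log2 fold change was 0.39 ± 0.11 (here and below, the error of a log2 fold change is the fit's standard error). Its brain-enriched paralog Rab6b had 425 ± 9.22 and 445 ± 11.5 CPM (mean ± SD, n = 4 and 3) and did not pass the threshold.

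Rab1 (current symbol Rab1a), which directs vesicles from the ER to the Golgi, had 505, 504, 419.6 and 415 CPM in temperature-responsive and 369.6, 328 and 322 CPM in non-responsive samples (log2 fold change 0.44 ± 0.10). Temperature-responsive replicates 1 and 2 stood above replicates 3 and 4, and the groups were apart. Its paralog Rab1b, which serves the same step, ran the other way, with 82.7, 67.8, 81.3 and 84.0 CPM against 117, 114 and 119.7 CPM and a log2 fold change of -0.56 ± 0.11. Here the non-responsive samples were tightly grouped and all above the temperature-responsive ones.

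The Rab2 paralogs, which act on the carriers between ER and Golgi, were also split. Rab2a had 488, 522, 453 and 425 CPM in temperature-responsive and 411, 337 and 338 CPM in non-responsive samples, with non-responsive replicate 1 close below the lowest temperature-responsive sample (log2 fold change 0.38 ± 0.10). Rab2b had 77.1, 54.9, 67.2 and 77.6 against 82.4, 88.8 and 92.3 CPM, lower in temperature-responsive samples without overlap (log2 fold change -0.34 ± 0.12). These were among the less stable calls. Without non-responsive replicate 2 or 3, neither Rab2a (0.33 in both fits) nor Rab6a (0.35 and 0.33) passed the threshold, and Rab2b lost its call without temperature-responsive replicate 2 (-0.25) or 3 (-0.32) or non-responsive replicate 2 (-0.33) or 3 (-0.30). DESeq2 did not call Rab2b either.

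Rab18, a Rab of the ER and lipid droplets, showed the largest rise past the threshold. It measured 422, 385, 335 and 328 CPM in temperature-responsive and 253, 235 and 221 CPM in non-responsive samples, clear of overlap, with a log2 fold change of 0.64 ± 0.10. Rab33b, a Golgi Rab that also binds the autophagy protein ATG16L1, had 92.9, 92.6, 86.8 and 69.6 against 58.7, 57.0 and 59.2 CPM (log2 fold change 0.54 ± 0.12). Temperature-responsive replicate 4 was the lowest of its group and still above all 3 non-responsive samples. Rab33a, the neuron-rich paralog found on vesicles of growing axons, was lower in temperature-responsive samples, at 38.1, 32.3, 32.3 and 37.9 against 51.8, 62.3 and 65.5 CPM (log2 fold change -0.77 ± 0.14). Of the remaining tested ER and Golgi members, Rab30 did not overlap between groups (16.2 to 21.4 against 22.2 to 25.4 CPM) but missed the threshold, and Rab43 overlapped.

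**Figure D2:**
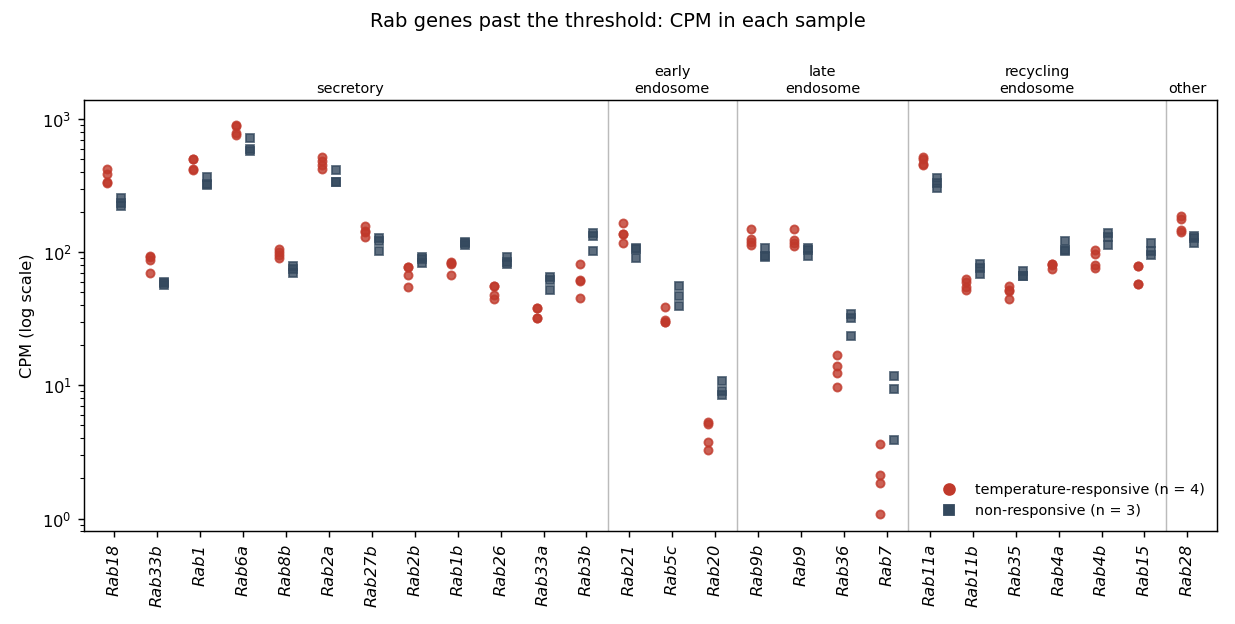
CPM on a log axis of the 26 Rab genes past the threshold, in each of 4 temperature-responsive samples (circles) and 3 non-responsive samples (squares), by compartment. In none of the 26 do the groups overlap, and the levels run from 1.08 CPM for Rab7 to 896 CPM for Rab6a.

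Among the exocytic Rabs the 2 most abundant Rab3 genes did not pass the threshold and a less abundant one fell. Rab3a, the main Rab of synaptic vesicles, had 319 ± 34.6 and 359 ± 7.71 CPM (mean ± SD, n = 4 and 3) in temperature-responsive and non-responsive samples, and Rab3c had 472 ± 30.4 and 427 ± 8.17 CPM. Neither passed the threshold, although the groups of Rab3c did not overlap. Rab3b, a paralog known from endocrine cells, had 60.4, 45.2, 62.1 and 81.9 CPM in temperature-responsive and 102, 139 and 132 CPM in non-responsive samples. Temperature-responsive replicate 4 came nearest to the non-responsive samples without reaching them, and the log2 fold change was -0.98 ± 0.15. Rab3d, the fourth paralog, was low, at 5.57 to 11.6 and 9.22 to 13.5 CPM. The Rab3b to Rab3c ratio was 0.134 ± 0.0399 in temperature-responsive and 0.291 ± 0.0517 in non-responsive samples.

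Rab26, a Rab of secretory granules and synaptic vesicles, was lower too. It had 47.4, 44.7, 55.9 and 55.5 CPM against 85.1, 81.5 and 92.1 CPM, with no overlap and a log2 fold change of -0.75 ± 0.12. Higher in temperature-responsive samples were Rab8b, which acts in delivery from the Golgi to the plasma membrane, with 99.9, 107, 95.8 and 90.3 against 74.9, 70.2 and 78.7 CPM (log2 fold change 0.39 ± 0.11), and Rab27b, which docks secretory granules. Rab27b had 143, 156, 129 and 145 against 127, 122 and 103 CPM, a log2 fold change of 0.29 ± 0.10, and its highest non-responsive sample lay just under the lowest temperature-responsive one. Their paralogs Rab8a (42.3 to 58.8 against 54.9 to 58.2 CPM) and Rab27a (7.62 to 14.8 against 8.01 to 15.6 CPM) overlapped between groups. Rab8b lost its call without non-responsive replicate 2 (0.35). Rab27b lost it without temperature-responsive replicate 1 (0.29), 2 (0.26) or 4 (0.29) or non-responsive replicate 2 (0.32) or 3 (0.20), and its sign turned with an offset for GC content (-0.043).

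On early endosomes the core fusion GTPases Rab5a (76.8 ± 9.25 and 72.8 ± 7.07 CPM) and Rab5b (18.5 ± 4.68 and 19.7 ± 0.654 CPM) did not pass the threshold, nor did the endosomal Rab22a and Rab31. Rab5c, the third member of that trio, had 29.7, 31.2, 38.5 and 29.9 CPM in temperature-responsive and 39.2, 46.7 and 55.8 CPM in non-responsive samples, with temperature-responsive replicate 3 just below the lowest non-responsive sample. Its log2 fold change was -0.55 ± 0.16, and it lost its call without non-responsive replicate 3 (-0.41). Rab21, the most abundant early endosomal member in CPM and known for carrying integrins, was higher. It had 165, 136, 117 and 137 CPM against 108, 105 and 90.5 CPM, without overlap, and a log2 fold change of 0.45 ± 0.11. Rab20, a low-level Rab of phagosomes and endosomes, had 3.25, 3.77, 5.08 and 5.27 CPM against 10.8, 8.47 and 9.01 CPM (7 to 15 and 36 to 45 counts), a log2 fold change of -1.08 ± 0.34. It was not called without non-responsive replicate 1 (-0.97).

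The largest difference of the family was in Rab7, the GTPase of late endosomes that brings about their fusion with lysosomes. Counts were 4, 2, 10 and 6 in temperature-responsive and 13, 63 and 47 in non-responsive samples, or 1.86, 1.08, 3.63 and 2.11 and 3.89, 11.9 and 9.41 CPM. The highest temperature-responsive sample sat just under non-responsive replicate 1, while non-responsive replicates 2 and 3 stood well above both. The groups differ by a log2 fold change of -1.91 ± 0.45, a value known when the family was chosen and given here with no test. In the fits that leave out 1 sample each, the value lay between -2.28 and -1.58. With a covariate for how many genes each sample detected it was -0.95. With all libraries downsampled to 1914497 counts, Rab7 did not pass the filter on low counts and had no fitted value. The sums were 22 counts over 4 samples and 123 over 3. Per kilobase, Rab7 ranked 51 of 58 at 2.24 CPM, a low place for a GTPase that most cells use. Rab7 lies on the minus strand at chr6:87999106-88045270 (mm10). Of its exonic bases 7.82% also lie in Gm5577 on the opposite strand, and 14.5% of the 50-base stretches of its longest transcript occur unchanged in another gene, chiefly the pseudogene Rab7-ps1. Reads that match both copies could go uncounted in all 7 samples, and their part in the low level was not tested. The 250 bases before the start of Rab7 (RefSeq, GRCm38.p6, chr6:88045271-88045520, shown 5′ to 3′ on the minus strand) are printed because the fall was the largest of the family. Capitals mark the CCAAT box, read on either strand.
Rab7: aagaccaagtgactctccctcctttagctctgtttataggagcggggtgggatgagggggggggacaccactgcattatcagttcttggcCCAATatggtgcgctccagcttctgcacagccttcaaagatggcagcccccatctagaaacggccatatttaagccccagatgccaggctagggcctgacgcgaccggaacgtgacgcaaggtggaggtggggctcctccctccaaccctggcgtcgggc

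The other late endosomal members differed less. Rab36, which positions late endosomes and lysosomes, had 13.9, 9.69, 12.3 and 16.9 CPM in temperature-responsive and 23.4, 32.0 and 34.4 CPM in non-responsive samples, with no overlap and a log2 fold change of -1.17 ± 0.21. It kept its call without each sample in turn. The Rab9 paralogs, which act in the return of mannose 6-phosphate receptors from late endosomes to the Golgi, were both higher. Rab9 had 150.0, 124, 117 and 111 against 107, 103 and 93.1 CPM (log2 fold change 0.31 ± 0.11). Rab9b had 125, 149, 113 and 119 against 107, 92.2 and 94.3 CPM (log2 fold change 0.37 ± 0.11). For both, the gap between the groups was narrower than the spread within the temperature-responsive samples. Rab9 lost its call without temperature-responsive replicate 1 (0.21) or 2 (0.32) or non-responsive replicate 2 (0.33) or 3 (0.25), and Rab9b without temperature-responsive replicate 2 (0.29) or non-responsive replicate 2 (0.33) or 3 (0.34). DESeq2 did not call Rab9. Rab24, an autophagy-linked member with the highest CPM of this compartment (151 ± 17.9 and 162 ± 6.21), did not pass the threshold, and 62.4% of its exons overlap Prelid1 on the opposite strand, so its count is uncertain.

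Among the recycling endosome Rabs, 5 fell and 1 rose of 8 tested, and the median log2 fold change was -0.41. Rab4a and Rab4b, which return receptors quickly from early endosomes to the surface, were both lower. Rab4a had 80.8, 74.8, 81.7 and 81.2 CPM in temperature-responsive and 105, 121 and 103 CPM in non-responsive samples (log2 fold change -0.46 ± 0.11). Rab4b had 104, 79.7, 75.9 and 97.3 against 114, 129 and 139 CPM (log2 fold change -0.52 ± 0.12). All non-responsive samples of both genes were above all temperature-responsive ones, and their ratio to each other overlapped between groups, at 0.907 ± 0.131 and 0.863 ± 0.105. Rab15, a neuronal Rab on the way from early to recycling endosomes, had 58.1, 58.1, 78.8 and 79.1 against 95.9, 103 and 118 CPM (log2 fold change -0.61 ± 0.13). Its temperature-responsive samples fell into a lower pair (replicates 1 and 2) and an upper pair (3 and 4), both below the non-responsive samples. Rab35, a fast-recycling Rab at the plasma membrane, had 52.0, 44.1, 51.5 and 55.9 against 66.8, 71.9 and 66.1 CPM (log2 fold change -0.42 ± 0.13), and lost its call without temperature-responsive replicate 2 (-0.36) or non-responsive replicate 2 (-0.37).

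The Rab11 paralogs, the slow-recycling GTPases, parted. Rab11a had 498, 517, 452 and 463 CPM in temperature-responsive and 359, 332 and 302 CPM in non-responsive samples, clear of overlap, with a log2 fold change of 0.54 ± 0.10. Rab11b had 59.4, 54.4, 62.4 and 52.4 against 68.9, 81.8 and 76.3 CPM, lower without overlap, with a log2 fold change of -0.41 ± 0.12. It was not called without temperature-responsive replicate 4 (-0.36) or non-responsive replicate 2 (-0.34). Rab25, the epithelial paralog, reached at most 3.86 CPM in any sample and was not tested. Rab14, with 446 ± 24.5 and 393 ± 22.1 CPM, and Rab12 did not pass the threshold. Outside these compartments Rab28, known from cilia, had 186, 178, 141 and 148 against 129, 133 and 118 CPM (log2 fold change 0.36 ± 0.11). It was not called without temperature-responsive replicate 2 (0.32) or non-responsive replicate 3 (0.31), and was at -0.0084 with the GC offset. Rab39 did not overlap between groups (3.63 to 5.92 against 1.20 to 3.39 CPM) at levels near the floor, and it missed the threshold.

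Some of these counts could be shared with other genes. A listed gene overlaps 19.0% of the exonic bases of Rab6a (Mrpl48), 9.36% of those of Rab26 (Traf7) and 9.0% of those of Rab3b (8030443G20Rik). With genes absent from the count tables included, the overlap was 65.0% for Rab4b (chiefly Gm21983, same strand) and 64.0% for Rab2b (Gm43766, opposite strand). It was 25.6% for Rab20 and 18.7% for Rab33b. The counts of these genes are therefore uncertain, and the part of the overlaps in their differences was not tested. Exact 50-base stretches that also occur in other genes made up 13.0% of Rab5b, 9.77% of Rab11b and 7.87% of Rab9. They made up 5.66% of Rab8b, 4.51% of Rab2a and 4.33% of Rab33b, and 0% of Rab1, Rab1b, Rab11a and Rab18.

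Summed over all 58 genes, Rab transcripts came to 7461, 7249, 6763 and 6758 CPM in temperature-responsive and 6665, 6426 and 6305 CPM in non-responsive samples, 7058 ± 354 and 6465 ± 183 (mean ± SD), so the total stood 1.09-fold higher without overlap. Most of that lay on the ER and Golgi, where the sums were 3042, 3028, 2712 and 2653 against 2539, 2313 and 2287 CPM, a ratio of 1.20. The recycling sum was also slightly higher, 1415 ± 42.1 against 1349.6 ± 27.5 CPM, although 5 of its members were lower, as Rab11a and Rab14 make up most of it. The lowest temperature-responsive recycling sum, 1373.1 CPM, was barely above the highest non-responsive one, 1372.9 CPM. The exocytic sums overlapped at 1512 ± 49.4 and 1551 ± 3.77 CPM, as did the early (396 ± 30.2 and 378 ± 10.2) and late endosomal sums (479 ± 34.9 and 458 ± 9.39). The ER and Golgi share of all Rab CPM was 40.5% in temperature-responsive and 36.8% in non-responsive samples.

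**Figure D3:**
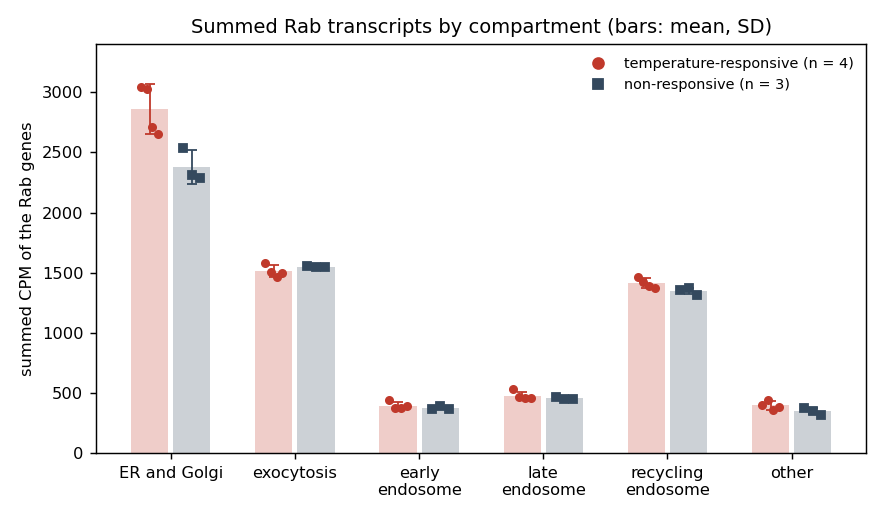
Summed CPM of the Rab genes of each compartment, with bars for the mean, whiskers for the SD and points for the 4 temperature-responsive and 3 non-responsive samples. The ER and Golgi and recycling sums do not overlap between groups and the early, late, exocytic and remaining sums do.

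Paralogs were compared by the ratio of their counts within each sample, which no scaling between samples can alter. An offset for GC content can alter it, since it differs between the 2 genes of a pair. Over 22 pairs in 15 paralog groups, the ratio did not overlap between the groups in 12. Over all 102452455 pairs of tested genes with a count in each sample the share was 30.1%, and the Rab pairs, which share members, are given as a description. The largest difference between groups in the mean log2 ratio was that of Rab33a to Rab33b, a ratio of 0.349 to 0.545 in temperature-responsive and 0.883 to 1.10 in non-responsive samples. Rab1 exceeded Rab1b 5.91 ± 1.14-fold (mean ± SD) in temperature-responsive and 2.91 ± 0.24-fold in non-responsive samples. Rab11a exceeded Rab11b 8.50 ± 0.958-fold and 4.41 ± 0.695-fold. In both of the latter pairs the abundant paralog took a larger part of the pair in every temperature-responsive sample. The Rab2a to Rab2b ratio was 7.01 ± 1.75 and 4.15 ± 0.73, and that of Rab6a to Rab6b 1.95 ± 0.15 and 1.43 ± 0.218. Of the 22 pairs, 4 were called in opposite directions (Rab1 and Rab1b, Rab2a and Rab2b, Rab11a and Rab11b, Rab33b and Rab33a) and 2 in the same direction (Rab4a and Rab4b, Rab9 and Rab9b). With an offset for GC content, Rab1 (0.21) and Rab2a (0.22) were no longer past the threshold, nor were Rab9 (0.18) and Rab9b (0.12).

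**Figure D4:**
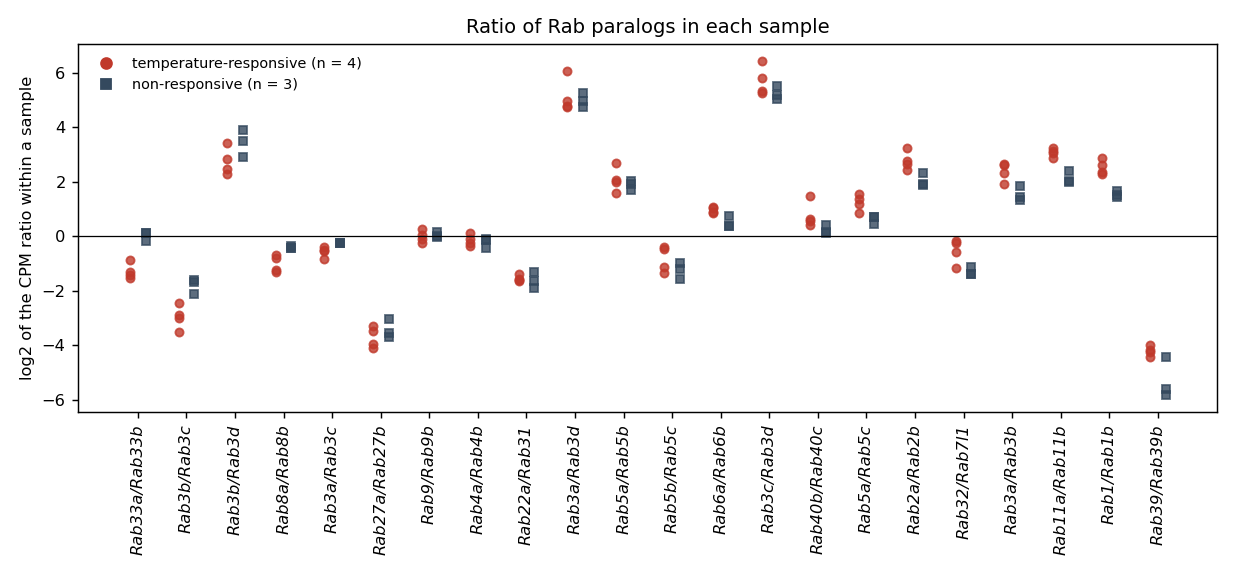
Log2 of the CPM ratio of each Rab paralog pair in each sample (circles temperature-responsive, n = 4; squares non-responsive, n = 3), ordered by the difference of the group means. The groups are apart in 12 of the 22 pairs, while Rab4a to Rab4b and Rab9 to Rab9b sit at about the same ratio in both.

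The starts of the Rab1 and Rab11 pairs, each called in opposite directions, are printed so that a promoter of a higher gene can be read beside that of its lower partner. Each is the 250 bases before the annotated start (RefSeq, GRCm38.p6), 5′ to 3′ on the gene's strand: Rab1 at chr11:20201162-20201411 on the plus strand, and on the minus strand Rab1b at chr19:5106997-5107246, Rab11a at chr9:64737757-64738006 and Rab11b at chr17:33760487-33760736. Capitals mark the GC box GGGCGG and the CCAAT box CCAAT, searched on both strands and not overlapping here.
Rab1: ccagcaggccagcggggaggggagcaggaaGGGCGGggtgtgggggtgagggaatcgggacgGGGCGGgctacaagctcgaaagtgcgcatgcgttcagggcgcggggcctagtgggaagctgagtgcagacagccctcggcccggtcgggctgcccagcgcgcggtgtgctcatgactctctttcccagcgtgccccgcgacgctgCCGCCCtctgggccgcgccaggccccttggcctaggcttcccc
Rab1b: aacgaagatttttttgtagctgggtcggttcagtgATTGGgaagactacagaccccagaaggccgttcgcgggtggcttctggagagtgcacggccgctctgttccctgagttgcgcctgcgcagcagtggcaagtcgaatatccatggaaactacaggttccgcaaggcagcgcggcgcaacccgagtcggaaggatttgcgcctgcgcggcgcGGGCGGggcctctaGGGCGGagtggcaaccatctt
Rab11a: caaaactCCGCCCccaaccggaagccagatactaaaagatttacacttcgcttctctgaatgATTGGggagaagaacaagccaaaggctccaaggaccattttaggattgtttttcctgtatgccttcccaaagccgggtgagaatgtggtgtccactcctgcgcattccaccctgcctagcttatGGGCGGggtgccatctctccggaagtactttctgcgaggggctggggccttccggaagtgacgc
Rab11b: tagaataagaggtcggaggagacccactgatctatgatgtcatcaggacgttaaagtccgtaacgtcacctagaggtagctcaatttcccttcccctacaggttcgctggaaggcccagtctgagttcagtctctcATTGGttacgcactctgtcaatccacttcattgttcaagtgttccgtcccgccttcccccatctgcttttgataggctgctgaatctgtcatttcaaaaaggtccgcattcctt
Rab1 held 3 GC boxes and no CCAAT box in this window, Rab1b 2 and 1, Rab11a 2 and 1, and Rab11b none and 1. Of the 58 Rab genes, 48 had a promoter in the table. A GC box was found in 33 of them (68.8%), against 32.7% of all 32851 promoters of that length, and a CCAAT box in 22 (45.8% against 33.8%). The E-box CACGTG was in 4 (8.33% against 6.02%) and the cyclic AMP response element TGACGTCA in 2 (4.17% against 1.55%). Only the most upstream start of each Rab gene was taken. The comparison set was not limited to 1 promoter per gene or to genes tested here, so these shares come from unlike sets. Both boxes were found among genes of either direction: 7 of 9 higher and 8 of 11 lower genes with a promoter held a GC box, and 5 of 9 and 6 of 11 a CCAAT box. Each match is a description of the letters and not a site known to be bound.

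The direction of a Rab gene's difference went with the base composition of its transcript. Across the 53 tested Rab genes, Spearman's rho between log2 fold change and GC content of the longest transcript was -0.647, and across 14295 genes with a GC value it was -0.342 (genes are not independent replicates, and all share the same 7 libraries). The 12 higher Rabs had GC contents of 36.8% to 45.7% (median 41.6%) and the 14 lower ones 44.55% to 58.9% (median 54.2%). In each of the 4 pairs called in opposite directions the higher gene had the lower GC content, from Rab1 at 42.0% against Rab1b at 58.9% down to Rab2a at 44.35% against Rab2b at 44.55%. Higher Rabs also tended to be more abundant, with a median of 139.9 CPM against 65.5 CPM. Spearman's rho between log2 fold change and mean CPM was 0.314 across the tested Rab genes and -0.133 across all genes tested. With an offset for GC content in the fit, 24.5% of all genes passed the threshold. The median log2 fold change was then -0.087 for the Rabs and -0.059 for all genes, against -0.067 and 0.007 without the offset. The values of all genes thus also moved down. In the fit with the offset, 3 Rabs were higher and 15 lower. The 3 were Rab18 (0.35), Rab33b (0.41) and Rab11a (0.25). Rab7 aside, all 13 lower genes kept their call, Rab36 at -1.13 and Rab3b at -1.04 among them, and Rab30 joined them (-0.61). The value of Rab7 in that fit was -1.97. Of the other 9, Rab1 stood at 0.21, Rab2a at 0.22, Rab6a at 0.23, Rab21 at 0.25, Rab9 at 0.18, Rab8b at 0.13 and Rab9b at 0.12, no longer past the threshold, and Rab27b and Rab28 turned sign as given above. Whether GC content itself or something that goes with it sets these values was not tested. With a covariate for how many genes each sample detected, which is itself parted by group, no Rab gene was called by edgeR (1 gene of 14407 was). In that edgeR fit 14 of the 53 Rabs and 2062 of all 14407 genes had an unadjusted p under 0.05. All 26 kept their sign.

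**Figure D5:**
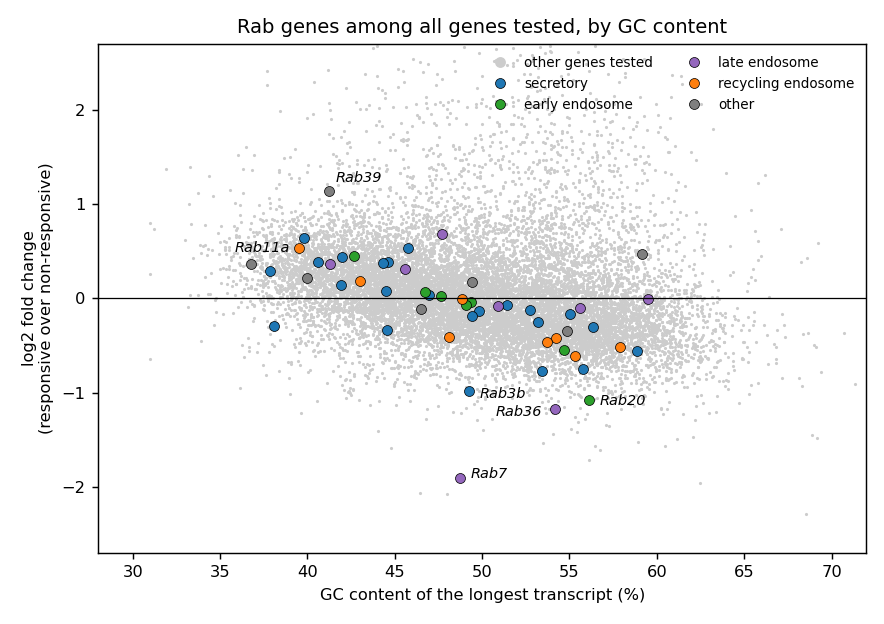
Log2 fold change (y axis, temperature-responsive over non-responsive) against the GC content of the longest transcript (x axis, %) for the Rab genes, coloured by compartment, over all other genes tested (grey; genes beyond the axis are not drawn). The Rab points fall from left to right, and Rab7 lies among the lowest genes of its GC content.

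Leaving out 1 sample at a time tested each call for its hold on single samples. Rab7 aside, 13 of the 25 calls held in all 7 fits: Rab1, Rab11a, Rab18, Rab21 and Rab33b among the higher and Rab1b, Rab3b, Rab4a, Rab4b, Rab15, Rab26, Rab33a and Rab36 among the lower. The other 12, 7 higher and 5 lower, lost their call without at least 1 sample, as given above. The number of Rabs called higher fell to 7 without non-responsive replicate 2 and to 6 without non-responsive replicate 3, and the number called lower stayed between 11 and 15. The share called over all genes also fell, from 30.0% to 21.2% without non-responsive replicate 2 and to 18.5% without non-responsive replicate 3.

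The proteins that run the Rab cycle gave fewer rises than falls. In 5 lists with 126 tested genes, 6 were higher and 32 lower, 30.2% in all beside the 30.0% of all genes, and 88 did not pass. With upper quartile scaling the split was 16 higher and 23 lower, so the balance between directions depends on the scaling. Of 12 genes of the general cycle, 1 was higher and 3 lower (33.3% called). Chm, the escort protein that presents Rabs for lipid attachment, had 183, 172, 183 and 161 CPM in temperature-responsive and 129.7, 128 and 125 CPM in non-responsive samples (log2 fold change 0.45 ± 0.09). Rabggta, a subunit of the transferase that adds the lipid, was lower, with 29.1 ± 3.00 and 46.1 ± 7.16 CPM (log2 fold change -0.67 ± 0.16), as was Arl6ip5 (-0.45 ± 0.14), a prenylated-Rab acceptor family protein that lost its call without non-responsive replicate 3 (-0.28). For both Chm and Rabggta the groups were apart.

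Of 32 GEFs tested, none was higher and 6 were lower. GEFs were thus called less often (18.75%) than all genes tested (30.0%). The falls were led by Sbf1, a myotubularin-related DENN-domain protein, at 45.5 ± 7.04 and 81.0 ± 18.3 CPM (log2 fold change -0.82 ± 0.15). Rab3il1, an exchange factor of Rab8 and Rab3, was at -0.68 ± 0.22. Rab3il1 was not called without temperature-responsive replicate 1 (-0.60) or non-responsive replicate 3 (-0.54). Of 33 GAPs, 3 were higher and 9 lower (36.4% called). Tbc1d15, a GAP of Rab7, was higher at 131, 110.4, 110.4 and 76.2 against 83.3, 66.4 and 60.0 CPM with overlapping groups (log2 fold change 0.62 ± 0.15), and Tbc1d17 was lower at 30.6 ± 6.32 and 49.6 ± 4.78 CPM (log2 fold change -0.69 ± 0.16), although another listed gene covers 36.1% of its exons. Tbc1d4, a GAP of Rab10 (0.60 ± 0.21), lost its call without temperature-responsive replicate 1 (0.34) or non-responsive replicate 1 (0.51) or 3 (0.60). Tbc1d25, a GAP of Rab33b (-0.69 ± 0.26), lost its call without any of temperature-responsive replicates 2 (-0.59), 3 (-0.65) and 4 (-0.74) or non-responsive replicates 1 (-0.64) and 2 (-0.60).

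Of 37 effectors, 2 were higher and 11 lower (35.1% called). Appl2, an early endosomal effector of Rab5 and Rab21 (0.37 ± 0.13), and Fyco1, a Rab7 effector that carries late endosomes along microtubules (0.32 ± 0.11), were higher. Rims1, the active-zone effector of Rab3, was lower at 18.4 ± 5.31 and 30.9 ± 7.68 CPM with overlapping groups (log2 fold change -0.73 ± 0.22), as was Rab11fip4, a Rab11 effector (-0.61 ± 0.23). Each of these 4 lost its call without some of the samples. These were temperature-responsive replicates 1 and 2 and non-responsive replicates 2 and 3 for Appl2 (0.26 to 0.36), and temperature-responsive replicates 2 and 3 and each non-responsive replicate for Fyco1 (0.25 to 0.34). For Rims1 they were temperature-responsive replicate 2 and non-responsive replicates 2 and 3 (-0.69 to -0.58), and for Rab11fip4 temperature-responsive replicates 1, 3 and 4 and non-responsive replicates 2 and 3 (-0.63 to -0.49). Of 12 genes of HOPS, CORVET and retromer, complexes that tether and sort on Rab5 and Rab7 membranes, none was higher and 3 were lower. With 12 genes tested, 3 calls were too few to set this share apart from the 30.0% of all genes, and the difference was not tested. Vps11, a core subunit of both tethers, had 65.0, 47.9, 60.3 and 54.1 against 75.5, 74.7 and 93.9 CPM, apart between groups (log2 fold change -0.52 ± 0.13), and Tgfbrap1, the CORVET subunit also called Vps3, was at -0.51 ± 0.16 and lost its call without temperature-responsive replicate 2 (-0.43) or non-responsive replicate 3 (-0.40). With the GC offset Chm (0.095), Tbc1d15 (0.33), Tbc1d4 (0.57), Tbc1d25 (-0.61), Appl2 (0.35), Fyco1 (0.28) and Rab11fip4 (-0.58) did not pass the threshold, and the other named genes of these lists did.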

How the data were processed

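Gene-level transcript counts were analysed for 7 samples of pooled patch-clamped neurons. The deposited files hold raw counts per gene, which the authors made with htseq-count (HTSeq 0.9.1) from reads aligned to mm10 with STAR 2.6.0 after removal of PCR duplicates. Libraries came from SMART-seq V4 and Nextera XT kits, which do not mark strand and carry no molecular identifiers. Removing duplicates without identifiers can lower the counts of abundant genes more in deeper libraries.

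Groups followed the labels. The fit took genes that reached 10 counts in 3 or more samples, in edgeR 4.0.16 (R 4.3.3; TMM scaling, robust quasi-likelihood test, Benjamini-Hochberg over all genes tested, threshold 0.05, no covariate). CPM used TMM-scaled totals. The script was tested on simulated data. Alternatives were DESeq2 1.42.0, limma-voom 3.58.1, other scalings and filters, downsampling to 1914497 counts, a detection covariate, a GC offset from mgcv 1.9.3, a replicate block and leaving out each sample. The GENCODE M21 annotation of mm10 gave positions, transcript lengths and GC content for 98.4% of symbols, and RefSeq gave the promoters.

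The family, its compartments, the 5 lists and the alternatives were chosen with earlier results of these data known. Named were Rab7, every member past the threshold, the member with the highest CPM of each compartment, their paralogs, and at most 2 rises and 2 falls of each other list. Rab12, Rab13, Rab22a, Rab30, Rab31, Rab39, Rab43 and the untested members were named after their values were seen.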

Additional observations from a re-analysis of the deposited data

Results flagged for a closer look

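In 3 of 53 Rab genes examined, 1 temperature-responsive sample stood away from the other 3, its gap over the group's range being above Dixon's 95% critical value. Chance flags about 1 in 20 groups. The sample was temperature-responsive replicate 2, the shallowest library, and it was the lowest each time. Rab4a, a recycling Rab, had 74.8 CPM there against 80.8 to 81.7 CPM in the others (ratio 0.874). Rab1b, of ER to Golgi transport, had 67.8 CPM against 81.3 to 84.0 CPM (0.835). Rab13, an exocytic Rab that did not pass the threshold, had 17.8 CPM against 21.8 to 22.5 CPM (0.857). Both called genes, Rab4a and Rab1b, remained past the threshold without that sample.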

How the results depend on the processing

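With 12 Rab genes higher and 14 lower as reported, the number called higher was 3 with the GC content offset, 2 with that offset and the replicate block together and 0 with a covariate for genes detected, which also left 0 lower. With the GC offset 15 Rabs were lower and 24.5% of all genes were called. With the offset and the block together these were 12 and 19.4%. Downsampling gave 12 higher and 10 lower, with 27.1% of all genes called. Rab2b, Rab20 and Rab35 lost their call there and Rab7 was not tested. With all genes of at least 1 count, 8 Rabs were higher and 16 lower, with 24.7% of all genes called. The number called higher moved between 6 and 12, and the number lower between 11 and 15, when 1 sample was left out. The share called over all genes moved between 18.5% and 32.2% in those fits. Against 6 higher and 32 lower genes of the 5 lists, upper quartile scaling gave 16 higher, library size alone 3 higher, the GC offset 3 higher, downsampling 21 lower, and the detection covariate 0 higher and 0 lower. Leaving out 1 sample gave 3 to 8 higher and 15 to 33 lower. The cause of these shifts was not tested. The median log2 fold change of the Rab genes stayed between -0.082 and -0.0085 without 1 sample. Signs turned in 3 cases, Rab28 (-0.0084) and Rab27b (-0.043) with the GC offset and Rab27b (-0.064) with the replicate block and GC offset. Of 776 refitted values of single genes, 610 kept direction and side of the threshold and 163 kept direction only.

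Same-numbered samples share only a number. Their deviations from the group means correlated at -0.128, -0.0618 and 0.0316. With the replicate block over replicates 1 to 3, 12 Rabs were higher and 14 lower, 25 of them called as before. The share called over all genes was 29.3% in that fit, and 11 list genes were higher. The block together with the GC offset left 21 list genes lower.

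Depth limits the low members: Rab7, Rab20, Rab39 and the 5 untested genes rest on few counts, a floor of 3 counts being worth up to 1.62 CPM. That floor covers counting error only, since reads carried no molecular identifiers.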
